A study of Homo sapiens with 6 samples.

Results

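Writers and erasers of histone methylation, histone deacetylases, the enzymes of DNA methylation and the motor and core subunits of chromatin remodelling complexes were followed in A375, a human melanoma cell line, as a set of 71 genes. The members were all protein-coding genes named KDM with a number, KMT2 or KMT5, SMARCA to SMARCE, CHD1 to CHD9, DNMT1 or DNMT3, TET1 to TET3 or HDAC with a number other than HDAC6, together with EZH1, EZH2, EED and SUZ12. All 71 matched 1 of the 58302 gene identifiers in the count tables. RNA sequencing was compared between cells stably carrying an empty vector (3 libraries) and cells stably overexpressing HMGB2 (3 libraries). Both were stable lines made by lentiviral transduction of A375, and the labels name no other allele or agent. The 3 replicates of each group are described as technical in the study's reporting form, so the p-values measure the spread between samples of a line and not between independent transductions.

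Chromatin enzymes act in opposing pairs. KMT2 proteins methylate lysine 4 of histone H3 at promoters and enhancers and KDM5 proteins remove that mark, whereas EZH1 or EZH2 in Polycomb repressive complex 2 (PRC2) methylates lysine 27 and KDM6 proteins remove it. Histone deacetylases (HDACs) remove acetyl groups, DNMT enzymes methylate cytosine and TET enzymes oxidise the methyl group, and SMARC and CHD ATPases move or evict nucleosomes. HMGB2, the overexpressed gene, is a DNA-bending protein of chromatin that is not itself a member.

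Depth was between 45925053 and 56755212 reads in genes per library. HMGB2 had normalized counts (counts divided by DESeq2 size factors) of 7250, 7729 and 7562 with the empty vector and of 15095, 16848 and 14609 with overexpression, each set given in the order of replicates 1, 2 and 3, as in all that follows. It was therefore higher in every overexpression library, by a log2 fold change (log2FC) of 1.05 (standard error (SE) 0.10, DESeq2 adjusted p = 4.4e-22). Of the melanoma markers checked, CSPG4, S100B and MITF were detected in every library, MLANA, TYR and DCT had a normalized count below 11 in all 6, and SOX10 had no read in the column used here, where reads shared with a gene on the opposite strand are set aside. PMEL was between 49.6 and 67.0, S100A1 between 105 and 181 and TYRP1 between 7.51 and 21.3. That column kept only 3.37% of the stranded reads of PMEL, 1.82% of those of S100A1 and none of those of SOX10. The values of these 3 genes therefore do not show low expression. KRT8 kept 20.6% and KRT18 43.0%. The 3 blood cell markers were below 2. The epithelial genes EPCAM, KRT8 and KRT18 were present in all libraries, as were the endothelial genes PECAM1 (25.7 to 55.4) and VWF (38.2 to 67.7) at low levels, while CDH5 was at most 13.6. The part of these markers in the results was not tested. Empty vector replicate 3 stood apart from the other libraries, with a root mean square log2 deviation from its group of 0.326 against 0.205 to 0.243 in the other 5. Counts of called members are therefore given with and without empty vector replicate 3, as are the values of some members. Overexpression replicate 3 had the most multimapped reads, 10.6% against 2.58% to 4.89% in the other 5 libraries.

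A gene was called when its Benjamini-Hochberg adjusted p over all genes tested was under 0.05 in DESeq2. Of the 71 members, 68 received an adjusted p. KDM4F had no read, and KDM4E and DNMT3L had normalized counts of at most 2.02 and 0.908 in any library and were not tested. With HMGB2 overexpression 3 members were called lower (4.41% of those tested) and 1 was called higher (1.47%). The background over all genes tested was 2.64% called lower and 2.29% called higher, so these shares were near those of genes in general. The median log2FC of the 68 members was 0.02 beside 0.00272 for all genes tested, and the median size of the change regardless of sign was 0.11 beside 0.18. Without adjustment, 10 members had p under 0.05, a count with no share over all genes beside it.

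The 4 called members were HDAC9, KDM7A and EZH2, which were lower, and HDAC1, which was higher. HDAC9 is a class IIa deacetylase that binds MEF2 transcription factors and has little deacetylase activity of its own. KDM7A is a demethylase of repressive marks on histone H3, EZH2 is the catalytic subunit of PRC2, and HDAC1 is the class I deacetylase shared by the NuRD, SIN3 and CoREST corepressor complexes. For these 4 genes the 250 bases before a transcription start were read from RefSeq (GRCh38.p14), to show the control regions of the members that changed. They run 5′ to 3′ on the strand of the gene, end at the base before the start of the canonical transcript, and are in lower case except for matches on either strand to CCAAT (the CCAAT box, bound by NF-Y) and GGGCGG (the GC box, bound by SP factors), which are in capitals and can overlap.
HDAC9, chr7:18495499-18495748, plus strand: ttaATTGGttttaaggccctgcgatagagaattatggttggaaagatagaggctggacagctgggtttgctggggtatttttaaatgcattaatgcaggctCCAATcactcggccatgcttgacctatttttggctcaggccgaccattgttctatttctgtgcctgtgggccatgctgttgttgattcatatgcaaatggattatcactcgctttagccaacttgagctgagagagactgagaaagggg
KDM7A, chr7:140176984-140177233, minus strand: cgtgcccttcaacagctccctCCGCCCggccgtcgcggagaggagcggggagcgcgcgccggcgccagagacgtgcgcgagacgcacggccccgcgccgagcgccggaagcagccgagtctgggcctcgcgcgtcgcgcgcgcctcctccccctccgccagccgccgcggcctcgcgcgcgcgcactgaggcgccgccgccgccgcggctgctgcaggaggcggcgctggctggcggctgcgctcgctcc
EZH2, chr7:148884292-148884541, minus strand: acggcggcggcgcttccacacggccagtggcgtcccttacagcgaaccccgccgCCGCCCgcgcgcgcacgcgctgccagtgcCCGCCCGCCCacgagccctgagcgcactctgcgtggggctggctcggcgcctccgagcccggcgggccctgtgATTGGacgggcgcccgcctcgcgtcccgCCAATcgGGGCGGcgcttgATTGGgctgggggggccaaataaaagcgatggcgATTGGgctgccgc
HDAC1, chr1:32291833-32292082, plus strand: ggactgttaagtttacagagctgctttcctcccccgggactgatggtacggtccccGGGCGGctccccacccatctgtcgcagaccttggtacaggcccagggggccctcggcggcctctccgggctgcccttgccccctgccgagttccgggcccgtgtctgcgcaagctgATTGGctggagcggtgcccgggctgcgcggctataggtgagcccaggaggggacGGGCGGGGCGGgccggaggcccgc

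The region of EZH2 held 4 CCAAT boxes and 4 GC boxes. Among 35116 RefSeq start regions of the same length, 32.0% held at least 1 CCAAT box, 42.6% held at least 1 GC box, and 0.874% held 4 or more CCAAT boxes. So did 2 members, EZH2 and KDM4B. KDM4B also held 4 GC boxes and was not called. HDAC1 had 1 CCAAT box and 3 GC boxes, KDM7A had a single GC box and HDAC9 had 2 CCAAT boxes and no GC box. The KDM7A region was the richest in CpG of the 4, with 50 CpG dinucleotides, against 38 in EZH2, 21 in HDAC1 and 4 in HDAC9. The median was 22 over members and 11 over all start regions. Of the 63 members with a listed start, 20 (31.7%) held a CCAAT box and 41 (65.1%) a GC box. The AP-1 motif TGACTCA was present in 3 members (4.76%) and in 4.20% of all start regions, and the E2F-type motif TTGGCGC in 1 member (1.59%) and in 2.56% of all regions. Neither was found in the 4 regions printed. RefSeq lists 5 starts for HDAC9 and 2 for EZH2, and gene counts do not tell which start was used.

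HDAC9 (ENSG00000048052; hg38 chromosome 7, 18086949 to 19002416, plus strand) had normalized counts of 692, 786 and 762 in the empty vector libraries and 410, 368 and 401 in the overexpression libraries. Every overexpression library was below every empty vector library, with means of 747 ± 48.7 and 393 ± 21.7 (SD, n = 3). The log2FC was -0.93 (SE 0.13, DESeq2 adjusted p = 2.13e-10), or 0.526 times the empty vector level. It was called in all 15 fits run, leaving out each library in turn included. In bulk RNA, a lower level in every cell and fewer cells with the transcript cannot be told apart. HDAC4, HDAC5 and HDAC7, the other class IIa deacetylases, had log2FCs between -0.11 and 0.03 and were not called. HDAC5, the most abundant class IIa member per kilobase, had normalized counts of 5263, 5093 and 4355 and then 5015, 5435 and 4591, and the groups overlapped (log2FC 0.03, SE 0.12).

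KDM7A (ENSG00000006459; hg38 chromosome 7, 140084746 to 140176983, minus strand) had normalized counts of 1305, 1418 and 1309 in the empty vector libraries and 1105, 1031 and 894 in the overexpression libraries. The groups did not overlap, and the log2FC was -0.41 (SE 0.12, DESeq2 adjusted p = 0.0239). EZH2 (ENSG00000106462; hg38 chromosome 7, 148807257 to 148884321, minus strand) had normalized counts of 4797, 4991 and 5191 and then 4029, 3966 and 4289. Its groups did not overlap either, and the log2FC was -0.29 (SE 0.09, DESeq2 adjusted p = 0.049), just inside the threshold. HDAC1 (ENSG00000116478; hg38 chromosome 1, 32292083 to 32333635, plus strand) had normalized counts of 13864, 13024 and 13689 and then 15619, 17318 and 17891. All overexpression libraries were above all empty vector libraries, by a log2FC of 0.32 (SE 0.10, DESeq2 adjusted p = 0.0258).

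The calls of KDM7A, EZH2 and HDAC1 depended on the libraries used. Each of the 3 was called without empty vector replicate 3 and lost its call when any of the other 5 libraries was left out. The adjusted p rose to at most 0.328 for KDM7A, 0.518 for EZH2 and 0.375 for HDAC1. Their log2FCs stayed between -0.48 and -0.33, -0.32 and -0.26, and 0.28 and 0.38. With any of those 5 libraries left out, 0.839% to 1.15% of all genes tested were called higher and 1.13% to 1.47% lower. With all libraries these shares were 2.29% and 2.64%. With edgeR's quasi-likelihood test the adjusted p was 0.0835, 0.117 and 0.0916, whereas that of HDAC9 was 0.00363. EZH2 also lost its call with both stranded columns summed (DESeq2 adjusted p = 0.0523) and without the independent filter (DESeq2 adjusted p = 0.0852). With a term for the third replicates, KDM7A, EZH2 and HDAC1 were all called (DESeq2 adjusted p = 0.000122, 8.07e-05 and 1.00e-05). That fit called 8.71% of all genes higher and 8.61% lower. They were also called with the replicate number as a block and in replicates 1 and 2 alone.

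**Figure D1:**
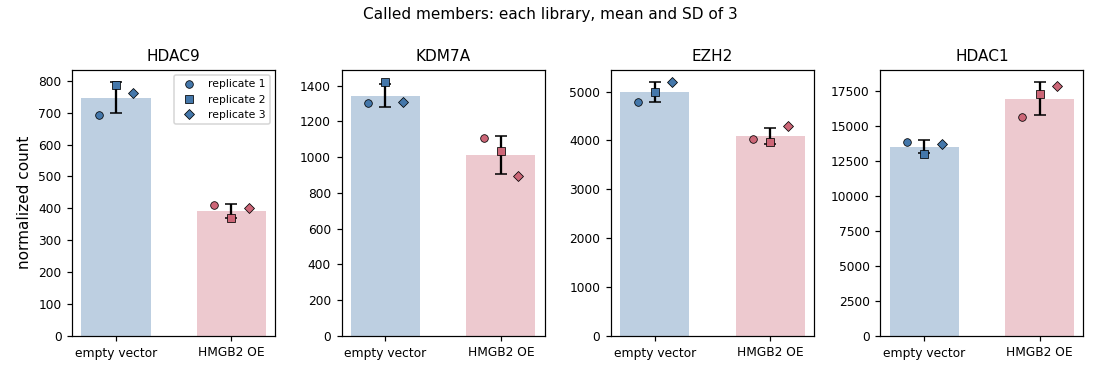
Normalized counts of HDAC9, KDM7A, EZH2 and HDAC1 in the 3 empty vector and the 3 HMGB2 overexpression (OE) libraries. Bars are means, error bars are SD of 3 libraries and points are libraries, with a marker for each replicate number, and in each panel the points of the groups do not overlap.

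Complete separation of the groups was also counted. Among 67 members averaging at least 10 normalized counts, 13 (19.4%) had groups that did not overlap, against a background of 22.8% of all 16692 such genes. Of the 13, 10 were higher in overexpression libraries and 3, the called HDAC9, KDM7A and EZH2, were lower. Over all genes 11.4% were higher and 11.4% lower without overlap. The 10 were HDAC1, HDAC2, SUZ12, KDM1A, KDM3A, SMARCE1, SMARCA1, CHD5, DNMT3B and TET1, of which only HDAC1 was called with all 6 libraries. This split includes empty vector replicate 3, which was low for many members (below), and the part of that library in it was not tested. Without that library 15 members were called lower (background 9.46%) and 2 higher (background 8.31%).

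The low values of empty vector replicate 3 fell on the members more than on genes in general. Among 65 members averaging at least 50 normalized counts, 49 (75.4%) were lower in empty vector replicate 3 than in both other empty vector libraries, beside 43.3% of all 13333 such genes. The median difference of log2(normalized count + 1) between empty vector replicate 3 and the mean of replicates 1 and 2 was -0.33 over these members and 0.00776 over all genes. In overexpression replicate 3 the same difference was -0.15 over members and -0.00325 over all genes, and 44 members (67.7%) were below both other overexpression libraries, beside 41.5% of all genes. Thus the third library of each group was low for this gene set, and more so with the empty vector.

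Transcript length moved with this difference. Members with a canonical transcript of 5000 bases or more had a median difference of -0.57 in empty vector replicate 3 (41 genes), and shorter members -0.07 (24 genes). Over all genes the corresponding medians were -0.18 (3515 genes) and 0.06 (9779 genes), so the median of long members was below that of long genes in general. Across the 65 members the Spearman correlation of length with the difference was -0.60 in empty vector replicate 3 and -0.46 in overexpression replicate 3. All points of a panel share libraries, and genes are not independent replicates. The median canonical transcript was 5604 bases among these members and 3238 among all genes. The part of transcript length in the results on the members was not tested.

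**Figure D2:**
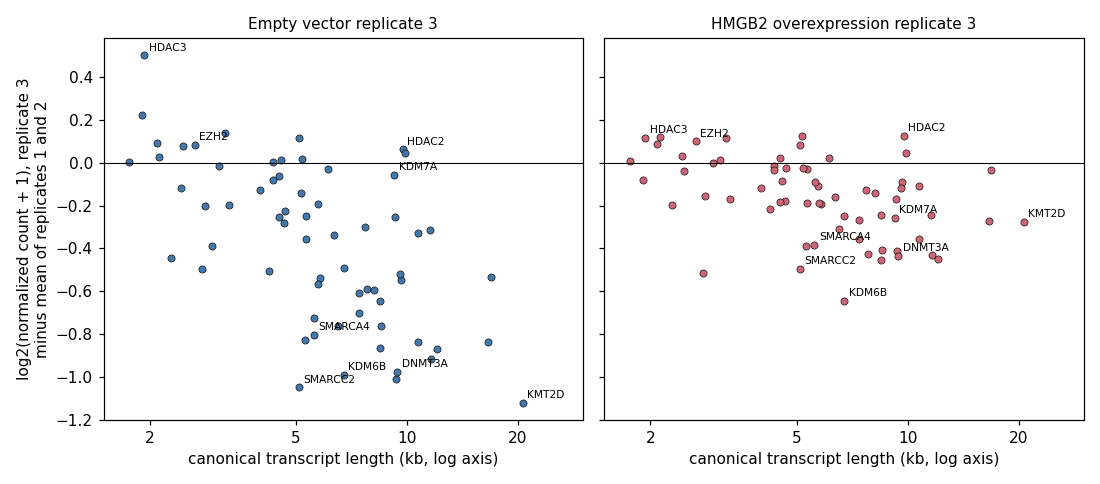
Difference on the log2 scale between replicate 3 and the mean of replicates 1 and 2 of the same group, against canonical transcript length, with 1 point for each of 65 members. Long members such as KMT2D lie far below 0 in empty vector replicate 3, members of 5000 bases or more having a median of -0.57 there and of -0.25 in overexpression replicate 3.

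Without empty vector replicate 3, 15 of 66 members tested were called lower (22.7%, background 9.46%) and 2 higher (3.03%, background 8.31%). With all 6 libraries and a term for the third replicates, 7 were called lower (10.6%, background 8.61%) and 4 higher (6.06%, background 8.71%). Replicates 1 and 2 alone gave 16 called lower (background 9.44%) and 4 higher (background 8.01%). The median log2FC of the members tested went from 0.02 with all libraries to -0.09 without this library. In all of the 15 both remaining empty vector libraries were above all 3 overexpression libraries. In 9 of the 15, however, overexpression replicate 3 was above empty vector replicate 3, and all 9 have canonical transcripts of 5000 bases or more. The other 6, HDAC9, KDM7A, EZH2, KDM6B, KDM4A and SMARCD1, were lower in overexpression replicate 3 than in empty vector replicate 3 as well. Of these 6, HDAC9, KDM7A and KDM6B also reach 5000 bases, so 12 of the 15 do. The third replicates carry a number and no stated batch, so whether they share a batch is not known.

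**Figure D3:**
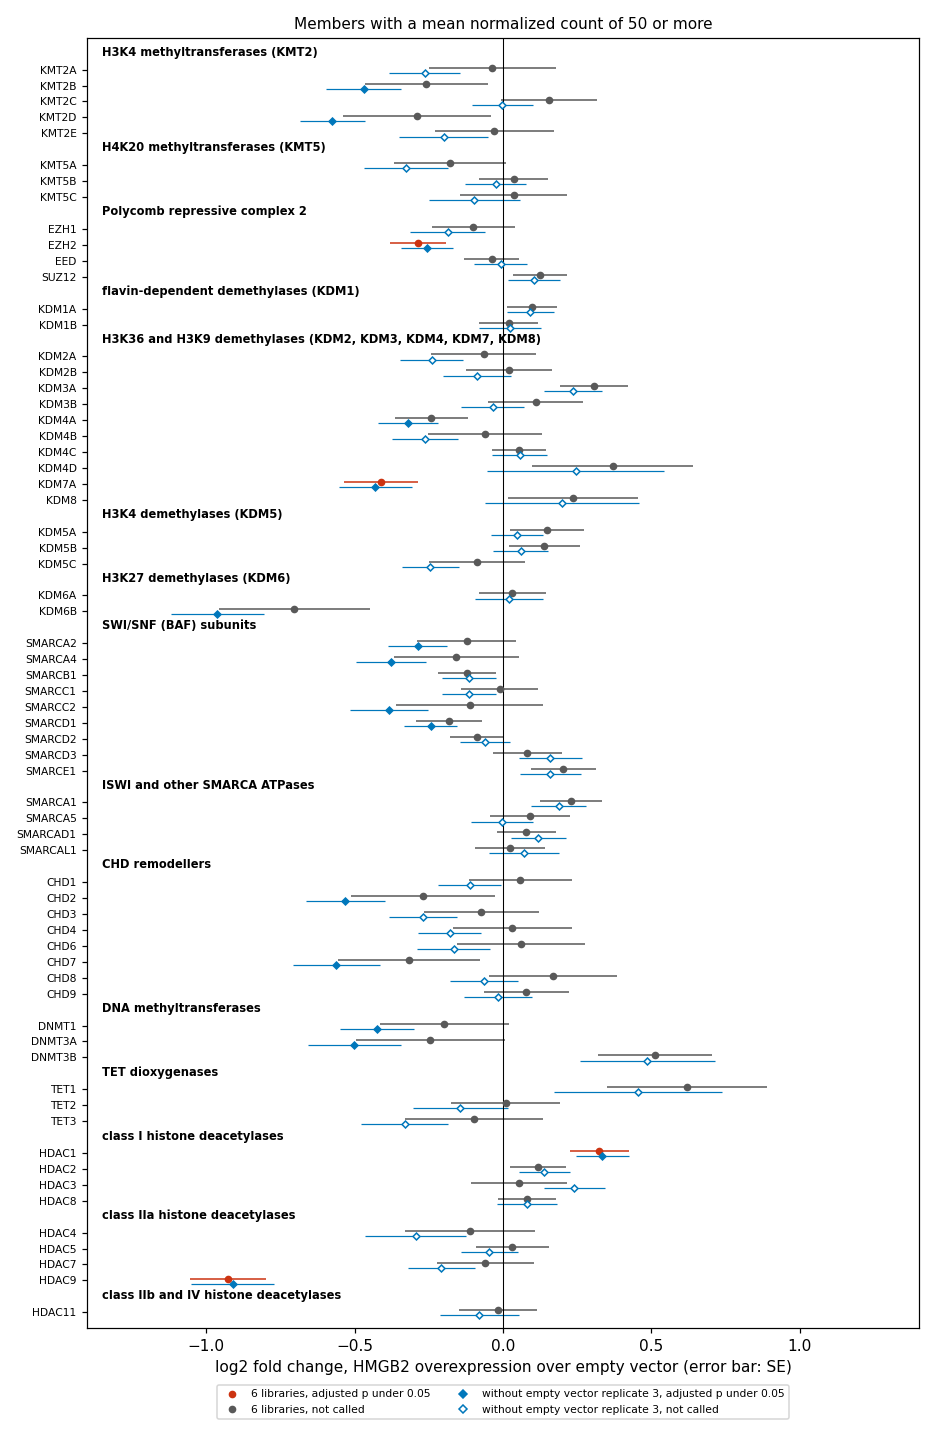
Log2 fold changes (HMGB2 overexpression over empty vector) with SE for members averaging at least 50 normalized counts, by role, with all 6 libraries (circles) and without empty vector replicate 3 (diamonds). Without that library 15 members were called lower, with KMT2D for example at -0.57 in place of -0.29, whereas HDAC9 lies at -0.91 in place of -0.93 and SMARCD3 lies further to the right.

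Among the writers of histone methylation, none of the 5 KMT2 genes was called with all libraries. Without empty vector replicate 3, 2 were called lower, in a fit that called 9.46% of all genes lower. KMT2D, a mono-methyltransferase of enhancers, had normalized counts of 3054, 2855 and 1358 with the empty vector and 2076, 2129 and 1738 with overexpression. Its empty vector replicate 3 value was the lowest of the 6, and the log2FC was -0.29 (SE 0.25) with all libraries and -0.57 (SE 0.11, adjusted p = 8.33e-06, DESeq2) without it. KMT2D was not called with the term for the third replicates (-0.21, SE 0.23, DESeq2 adjusted p = 0.619). KMT2B, a promoter methyltransferase, had normalized counts of 3273, 2968 and 1837 and then 2499, 2405 and 1850. The groups overlapped through empty vector replicate 3, and KMT2B was called lower both without that library (-0.47, SE 0.13, adjusted p = 0.00275) and with the term for the third replicates (-0.23, SE 0.09, adjusted p = 0.0456, both DESeq2). KMT2C, the close relative of KMT2D, had normalized counts of 1575, 1726 and 1138 and then 1618, 1704 and 1622. Empty vector replicate 3 alone lay apart from the other 5 libraries, and its log2FC was 0.16 (SE 0.16) with all libraries and close to 0 without that library.

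None of the 3 KMT5 genes, which methylate lysine 20 of histone H4, was called in either fit. KMT5A, the mono-methyltransferase of mitotic chromatin, had normalized counts of 2831, 2998 and 2067 and then 2391, 2775 and 1804, so replicate 3 was lowest in both groups (log2FC -0.18, SE 0.19). KMT5A shares 16.4% of its 50-base words with other genes, its pseudogenes among them, which limits how its reads were assigned. KMT5C, which adds the further methyl groups, had normalized counts of 568, 563 and 415 and then 480, 628 and 478, with overlapping groups (0.04, SE 0.18).

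In the core of PRC2 the EZH2 transcript was lower, and EZH1, EED and SUZ12 were not called. EZH1, the other catalytic subunit, had a log2FC of -0.10 (SE 0.14), and EED, the reader of the finished mark, of -0.04 (SE 0.09). SUZ12, the scaffold subunit, had normalized counts of 3584, 3875 and 3575 and then 4002, 3982 and 4052. All its overexpression libraries were above the empty vector libraries, but the difference was not called (log2FC 0.13, SE 0.09, DESeq2 adjusted p = 0.619). Per kilobase, EZH2 remained between 9.34 and 11.6 times as abundant as EZH1 in overexpression libraries, against 10.04 to 13.8 times in empty vector libraries.

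Of the erasers of lysine 27 methylation, KDM6B (JMJD3), an inducible demethylase, had the second largest fall of all members with a mean of 50 or more. Its normalized counts were 2430, 2388 and 1212 in the empty vector libraries and 1421, 1387 and 897 in the overexpression libraries. Replicate 3 was the lowest of its group on both sides and lower in the overexpression library, and empty vector replicate 3 fell inside the range of the overexpression group. The log2FC was -0.70 (SE 0.25, DESeq2 adjusted p = 0.0939) with all libraries. It was -0.96 (SE 0.16, adjusted p = 4.92e-08) without empty vector replicate 3 and -0.67 (SE 0.09, adjusted p = 4.58e-12) with the term for the third replicates, both in DESeq2. KDM6A (UTX), its X-linked relative, had normalized counts of 1042, 1152 and 1073 and then 1041, 1176 and 1123, nearly the same in both groups (0.03, SE 0.11).

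Of 10 tested demethylases in the KDM2, KDM3, KDM4, KDM7 and KDM8 families, which act mainly on lysines 9 and 36 of histone H3, only KDM7A was called with all libraries. KDM4A, which removes methyl groups from both lysines, had normalized counts of 4037, 4056 and 3390 and then 3201, 3549 and 2968. The groups overlapped because empty vector replicate 3 was below overexpression replicate 2. It was called lower without empty vector replicate 3 (-0.32, SE 0.10, adjusted p = 0.012) and with the term for the third replicates (-0.24, SE 0.07, adjusted p = 0.00599), but not with all libraries (-0.24, SE 0.12, DESeq2 adjusted p = 0.36). KDM4A kept 78.3% of its stranded reads in the column for either strand, so its level is less certain than most. It shares 46.4% of its 50-base words with other genes, mostly with an overlapping gene on the same strand that is not in the counts.

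KDM3A, a hypoxia-inducible demethylase of lysine 9, had normalized counts of 1717, 1848 and 1522 and then 2164, 2056 and 2072. All overexpression libraries were higher, by a log2FC of 0.31 (SE 0.11, DESeq2 adjusted p = 0.11). It was called with the term for the third replicates (DESeq2 adjusted p = 0.00183) and in replicates 1 and 2 alone. KDM3A was not called without empty vector replicate 3 (0.23, SE 0.10, DESeq2 adjusted p = 0.0757). KDM4D, a family member expressed mostly in testis, had normalized counts of 61.6, 93.9 and 58.0 and then 98.1, 86.7 and 92.3, with overlapping groups (0.37, SE 0.27).

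Among the KDM1 and KDM5 demethylases of lysine 4, none was called. KDM1A (LSD1), the catalytic subunit of CoREST, had normalized counts of 10366, 10517 and 10321 and then 10817, 11376 and 11199. The groups did not overlap, yet the difference was small (log2FC 0.10, SE 0.08, DESeq2 adjusted p = 0.704). KDM5A, a retinoblastoma-binding demethylase, had normalized counts of 4086, 4069 and 3244 and then 4300, 4333 and 4010 (0.15, SE 0.12). KDM5C, which is X-linked, had normalized counts of 7920, 7756 and 5397 and then 6646, 7159 and 6032, and empty vector replicate 3 was again the lowest library (-0.09, SE 0.16). KDM5B, well known in melanoma for marking slow-cycling cells, had a log2FC of 0.14 (SE 0.12). The Y-linked KDM5D was near the floor and was not called.

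None of the 9 SWI/SNF subunits among the members was called with all libraries. Without empty vector replicate 3, 4 were called lower, in a fit that called 9.46% of all genes lower. SMARCA4 (BRG1), the main ATPase of the complex, had normalized counts of 12384, 12640 and 7173 and then 9775, 11118 and 7992. Its lowest library was empty vector replicate 3, and the log2FC was -0.16 (SE 0.21) with all libraries and -0.38 (SE 0.12, DESeq2 adjusted p = 0.0125) without that library. SMARCA2 (BRM), the alternative ATPase, had normalized counts of 4169, 4456 and 2908 and then 3523, 3840 and 3235, with -0.12 (SE 0.17) and -0.29 (SE 0.10, DESeq2 adjusted p = 0.0274) in these fits. Neither ATPase was called with the term for the third replicates (DESeq2 adjusted p = 0.357 for SMARCA4 and 0.472 for SMARCA2). SMARCA4 was 2.54 to 3.06 times as abundant as SMARCA2 per kilobase with the empty vector and 2.55 to 2.98 times with overexpression, so the ratio of the ATPases overlapped between groups.

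SMARCC2, a scaffold subunit, had normalized counts of 5513, 5444 and 2645 and then 4475, 4815 and 3294. It had the deepest drop of any SWI/SNF member in empty vector replicate 3, and its log2FC went from -0.11 (SE 0.25) to -0.38 (SE 0.13, DESeq2 adjusted p = 0.0247) without it. With the term for the third replicates SMARCC2 was not called (-0.06, SE 0.09, DESeq2 adjusted p = 0.769). SMARCD1, an accessory subunit, had normalized counts of 7675, 7570 and 6641 and then 6549, 6804 and 5946. All its overexpression libraries were below empty vector replicates 1 and 2, and overexpression replicate 2 was above empty vector replicate 3. It was called without empty vector replicate 3 (-0.24, SE 0.09, adjusted p = 0.0424) and with the term for the third replicates (-0.18, SE 0.06, adjusted p = 0.0166, both DESeq2). SMARCE1, which binds DNA through an HMG domain, had normalized counts of 1510, 1564 and 1396 and then 1630, 1703 and 1819. Its groups did not overlap but the rise was not called (0.20, SE 0.11, DESeq2 adjusted p = 0.387).

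Of the ISWI and related ATPases, SMARCA1 (SNF2L) had normalized counts of 4506, 5026 and 4361 and then 5532, 5614 and 5137. All overexpression libraries were higher, and SMARCA1 was called higher with the term for the third replicates (0.23, SE 0.07, DESeq2 adjusted p = 0.00581) but not with group alone (0.23, SE 0.10, DESeq2 adjusted p = 0.259). SMARCA1 was not called without empty vector replicate 3 either (0.19, SE 0.09, DESeq2 adjusted p = 0.151). Its paralogue SMARCA5 (SNF2H) had a log2FC of 0.09 (SE 0.13), and SMARCAD1 and SMARCAL1 of 0.08 and 0.02.

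None of the 9 CHD remodellers was called with all libraries. CHD2 had normalized counts of 1519, 1592 and 773 and then 1197, 1146 and 880. CHD7, the gene of CHARGE syndrome and a remodeller of neural crest enhancers, had normalized counts of 979, 1068 and 541 and then 728, 789 and 562. Both were lowest in empty vector replicate 3 and were called lower without it, by -0.53 (SE 0.13, adjusted p = 0.00114) and -0.56 (SE 0.15, adjusted p = 0.00185, both DESeq2). Neither CHD2 nor CHD7 was called with the term for the third replicates (DESeq2 adjusted p = 0.182 and 0.0823). CHD8, a remodeller that binds beta-catenin, had normalized counts of 2693, 2696 and 1479 and then 2473, 2970 and 2286, and its log2FC was 0.17 (SE 0.22) with all libraries and -0.06 (SE 0.12) without empty vector replicate 3.

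CHD5, a CHD family member expressed mainly in the nervous system, went the other way in empty vector replicate 3. Its normalized counts were 2.02, 5.31 and 27.9 in the empty vector libraries and 42.7, 35.5 and 31.5 in the overexpression libraries. The groups did not overlap, but empty vector replicate 3 was close to the overexpression libraries, and at this low level the log2FC of 1.66 (SE 0.69) was not called with all libraries (DESeq2 adjusted p = 0.186). It was called without empty vector replicate 3 (3.29, SE 0.71, adjusted p = 0.000101) and with the term for the third replicates (2.17, SE 0.64, adjusted p = 0.00655, both DESeq2).

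None of the DNA methyltransferases was called with all libraries. DNMT1, the maintenance enzyme, had normalized counts of 9973, 9787 and 5558 and then 7166, 8835 and 6076. DNMT3A, a de novo enzyme, had normalized counts of 759, 833 and 404 and then 562, 669 and 454. In both, empty vector replicate 3 was the lowest library. With all libraries their log2FCs were -0.20 (SE 0.22, adjusted p = 0.797) and -0.24 (SE 0.25, adjusted p = 0.772), and with the term for the third replicates the adjusted p was 0.62 and 0.332 (all DESeq2). Both were called lower without that library, by -0.42 (SE 0.13, adjusted p = 0.00791) and -0.50 (SE 0.16, adjusted p = 0.0126, both DESeq2). DNMT3B, the other de novo enzyme, had normalized counts of 123.2, 111 and 111 and then 177, 153 and 161. All its overexpression libraries were higher, but the log2FC of 0.51 (SE 0.19) was not called with all libraries (DESeq2 adjusted p = 0.114) or without empty vector replicate 3 (DESeq2 adjusted p = 0.126).

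None of the TET dioxygenases was called in either fit. TET1 had normalized counts of 63.6, 90.4 and 51.5 and then 103, 113 and 101. Its groups did not overlap (log2FC 0.62, SE 0.27, DESeq2 adjusted p = 0.214). TET3 had normalized counts of 926, 944 and 511 and then 821, 809 and 596, with replicate 3 lowest in both groups (-0.10, SE 0.23), and TET2 had a log2FC of 0.01 (SE 0.19).

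Apart from HDAC1, the class I deacetylases were not called. HDAC2, the partner of HDAC1 in the same complexes, had normalized counts of 8240, 8607 and 8800 and then 8994, 9002 and 9824. It was higher in every overexpression library, with a log2FC of 0.12 (SE 0.09, DESeq2 adjusted p = 0.664). HDAC1 was 6.96 to 7.73 times as abundant as HDAC2 per kilobase with the empty vector and 7.98 to 8.84 times with overexpression. HDAC3, the deacetylase of the NCoR complex, kept 69.9% of its stranded reads, the lowest share of any tested member, and had a log2FC of 0.05 (SE 0.16). HDAC11, the sole class IV enzyme, had normalized counts of 589, 608 and 519 and then 577, 594 and 526, with overlapping groups (-0.02, SE 0.13). HDAC10 had between 7.88 and 14.5 normalized counts in all libraries and shares 60.6% of its 50-base words with other genes, so its level is uncertain.

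Members were compared with each other only per kilobase of canonical transcript, as normalized counts. HDAC1 was highest with the empty vector at 6386 ± 209 (SD, n = 3), followed by KDM1A at 3372 ± 33.4 and SMARCD2 at 3226 ± 150, and these last did not differ beyond their spread. CHD4, SMARCD1, SMARCC1, SMARCA4 and EZH2 followed between 2444 and 1881, each overlapping in spread with the next, although SMARCD1 at 2222 ± 173 lay above EZH2 at 1881 ± 74.2. In all, 14 members were above 1000 per kilobase with the empty vector, and 12 members with a mean count of 50 or more were below 100. HDAC9 was among these at 75.6 ± 4.93 with the empty vector and 39.8 ± 2.20 with overexpression. TET1 was the lowest member with a mean of 50 or more, at 7.13 ± 2.07 and 11.0 ± 0.683. The largest fall thus occurred in a member of low abundance and the called rise in the most abundant one. These values assume that the canonical transcript is the one expressed, which was not tested, and shorter isoforms would raise the level of a gene such as HDAC9 or HDAC2.

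**Figure D4:**
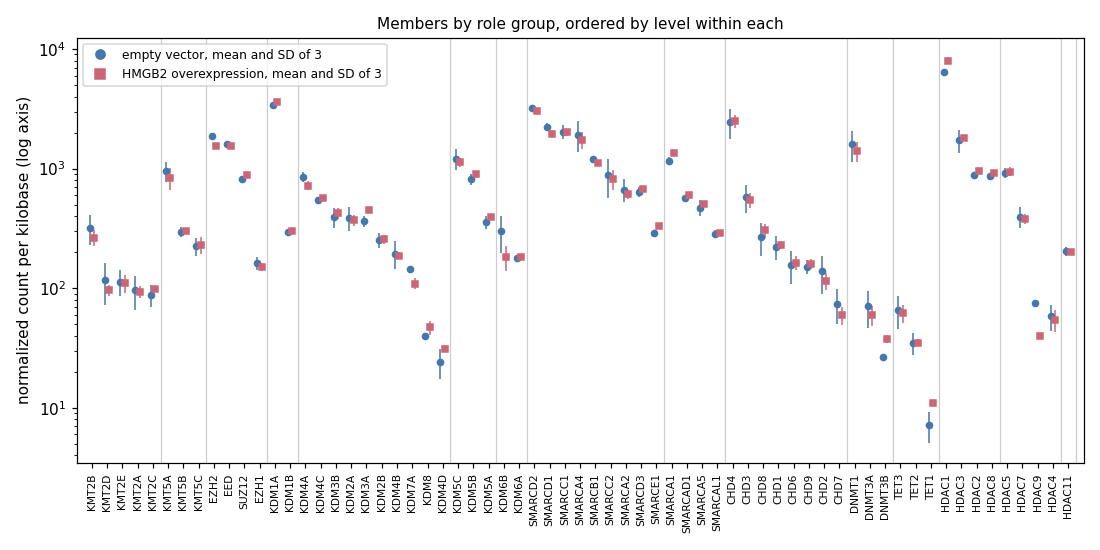
Normalized counts per kilobase of canonical transcript (log axis) for members averaging at least 50 normalized counts, as mean and SD of 3 libraries in each group, ordered by level within each role. HDAC1 is highest at 6386 with the empty vector, TET1 is lowest at 7.13, and HDAC9 shows the widest gap between groups among the called members.

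The genes that work with the members were taken from a list of 133 partner subunits and other chromatin enzymes, of which 130 were tested. With all libraries 1 was called higher (0.769%, background 2.29%) and 0 lower in DESeq2 (background 2.64%), with 8 at p under 0.05 before adjustment. EdgeR called 0 in either direction (background 1.28% higher and 1.52% lower), with 9 at p under 0.05 before adjustment. These counts before adjustment have no share over all genes beside them. The called gene was RBBP4, a histone-binding subunit shared by PRC2, NuRD and SIN3 complexes that also contain EZH2 or HDAC1. It had normalized counts of 5392, 6021 and 6410 in the empty vector libraries and 7200, 7370 and 7932 in the overexpression libraries. All overexpression libraries were higher, by a log2FC of 0.34 (SE 0.11, DESeq2 adjusted p = 0.0432), while edgeR gave an adjusted p of 0.11. Without empty vector replicate 3, 27 partner genes were called lower (20.8%, background 9.46%) and 4 higher (background 8.31%). Of the lower ones, 9 were among 22 subunits of NuRD, SIN3, CoREST and NCoR. The partner genes thus shared with the members the dependence on this library.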

How the data were processed

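RNA was poly(A)-selected and sequenced from 6 A375 libraries in 2 groups of 3. Per the study's methods and processing notes, the authors used bcl2fastq 2.20, FastQC, Trimmomatic and STAR on hg38, with the aligner version and annotation release not given in the sources used here. Whole-number read counts for each gene were deposited, unnormalized. Column 2 (either strand) was used, and the 4 summary lines were left out. In that column reads shared by genes on opposite strands are ambiguous (10.7% to 11.4% of reads), and multimapped reads (10.6% in overexpression replicate 3, 2.58% to 4.89% in the other libraries) are not counted.

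Symbols, coordinates and canonical transcripts came from GENCODE 44, which matched 57532 of 58302 identifiers. Counts were fitted with DESeq2 1.42.0 in R 4.3.3 (Wald test, group only, independent filter at 0.1), following the study's methods. Log2 fold changes are unshrunken. Simulated data with known changes were also fitted. They were drawn independently for each gene, so libraries differed only in depth and group. They therefore do not test the fit under a deviation like that of empty vector replicate 3. Members were named where called with all libraries, without empty vector replicate 3 or with a term for the third replicates, or where they had the largest rise or fall of their role group at a mean of 50 or more. Others are given after their values were seen. Partner genes were named where called. Alternatives were edgeR 4.0.16 (quasi-likelihood), TMM factors, a filter of 10 counts in 3 libraries, fits with all genes kept by the independent filter, with both stranded columns summed, with a block for the replicate number, a term for the third replicates, replicates 1 and 2 alone, and leaving out each library. The members, the lists and these alternatives were chosen with earlier results of these data known, so what they show is not independent support.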

Additional observations from a re-analysis of the deposited data

How the results depend on the processing

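With edgeR, 0 members were called higher (background 1.28%) and 1 lower (background 1.52%), and 0 partner genes were called higher. Before adjustment 11 members had p under 0.05 in edgeR, with no share over all genes beside it. Without the independent filter 0 partner genes were called higher (background 1.02%). The term for the third replicates gave 4 members higher and 7 lower, and 4 partner genes higher and 11 lower. The background was 8.71% higher and 8.61% lower. Replicates 1 and 2 alone gave 4 members higher and 16 lower, and 4 partner genes higher and 22 lower. There the background was 8.01% higher and 9.44% lower. Leaving out each library gave 0 to 2 members higher and 1 to 15 lower, and 0 to 4 partner genes higher and 0 to 27 lower. Over these fits the background ran from 0.839% to 8.31% higher and from 1.13% to 9.46% lower. The upper end came from leaving out empty vector replicate 3 each time. The cause was not tested. Among the 35 named members, the sign changed in 9 that were called neither with all libraries nor in the fits where it changed. Other members were not counted here, and some also changed sign, such as CHD4, at 0.03 with all libraries and -0.18 without empty vector replicate 3. With libraries left out, the log2 fold change ran from -0.0018 to 0.2784 for KMT2C, -0.1084 to 0.1077 for KMT5C, -0.2445 to 0.005 for KDM5C, -0.011 to 0.0782 for KDM6A, -0.3841 to 0.0496 for SMARCC2, -0.0642 to 0.302 for CHD8, -0.3313 to 0.0442 for TET3, -0.0457 to 0.0905 for HDAC5 and -0.0801 to 0.0316 for HDAC11, and in replicates 1 and 2 alone it was -0.0302 for KMT5C. The median log2 fold change of members stayed between -0.09 and 0.06 when a library was left out. TMM factors, the count filter and the sum of the stranded columns moved no count of calls by over 1.5 times, but 2 members in place of 3 were called lower with the summed columns and without the independent filter, EZH2 being lost.

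With the replicate number as a block, 3 members were called higher and 5 lower, and 2 partner genes higher and 5 lower, beside 6.09% of all genes higher and 6.46% lower. The numbers do not pair the samples by any label, and the correlations of deviations between same-numbered libraries were 0.0906, 0.142 and 0.349. Empty vector replicates 1 and 2 correlated best with overexpression replicate 2, and empty vector replicate 3 with its own number. Over 35 named members and the other 14 fits, 410 of 489 values kept their sign and their side of the threshold, 40 gained a call, 20 lost one and 19 changed sign. At this depth changes of low members such as CHD5 and HDAC10 are limited by their counts.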

Other observations

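The 3 members called lower, HDAC9, KDM7A and EZH2, all lie on chromosome 7, which holds 6 of the members tested. KMT2C, KMT2E and SMARCD3, the other members there, were not called. Of the 919 genes tested on chromosome 7, 2.94% were called lower, beside 2.64% of all genes tested, and their median log2 fold change was -0.01. Between KDM7A and EZH2, 38 genes were tested, of which 1 was called lower and 3 higher, with a median log2 fold change of 0.07.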
